A study of Homo sapiens with 66 samples.

Results

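Untreated CFZr L363 cells (L363-CFZr), an established human multiple myeloma line carrying resistance to the proteasome inhibitor carfilzomib (CFZ), were compared with untreated AMO-1 WT cells (AMO1), another established myeloma line. The 12 libraries used, of 66 RNAseq libraries in the series, were those labelled DMSO, the solvent control. They comprised 3 L363-CFZr and 3 AMO1 libraries at 6 h, and 3 of each line at 24 h, and they were taken by their labels alone. The series tested NCP26, an inhibitor of prolyl-tRNA synthetase, beside NCP22, halofuginone (HFG) and halofuginol in both lines, and CFZ in AMO1. The way in which the resistant line was derived is not given in the sources used here, nor whether it is a clone. The study's cell line methods list AMO1 resistant to CFZ and L363 resistant to lenalidomide as made in-house, but no L363 resistant to CFZ. Its results and figure captions do name CFZ-resistant L363 cells. Untreated means DMSO without a test compound, and the sample titles do not say whether the resistant line was grown in CFZ beforehand. Libraries of L363 cells without resistance were not analysed here, so the origin of a line and its resistance cannot be told apart in any difference below. Nothing in the labels says that the 3 replicates of a group came from separate cultures. The study's statistics section gives biological triplicates as the default for its experiments, while its RNAseq methods state only triplicates. The p-values therefore measure the spread between these libraries, which may be technical.

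Multiple myeloma is a cancer of plasma cells, which make and secrete immunoglobulin and so rely on the endoplasmic reticulum (ER) for folding and on the proteasome for disposal of protein. CFZ binds covalently to PSMB5, the chymotrypsin-like catalytic subunit of the 20S proteasome core. It is also a substrate of ABCB1 (P-glycoprotein), an efflux pump of the ATP-binding cassette (ABC) family that carries many drugs out of cells. Prolyl-tRNA synthetase charges tRNA with proline, and uncharged tRNA activates the kinase GCN2 (EIF2AK4), which phosphorylates eIF2 and raises translation of the transcription factor ATF4.

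Whole-number counts for 20167 genes were deposited. Total counts ran from 2712083 to 5005629 in AMO1 and from 2487872 to 4983522 in L363-CFZr libraries, with at least 1 count for 13248 to 14230 and 12641 to 14353 genes respectively. Levels are given in CPM, counts brought to a common library total, with library sizes scaled by the trimmed mean of M values (TMM), and fold changes as L363-CFZr over AMO1 on the log2 scale with standard error (SE). Replicate 2 of L363-CFZr at 24 h stood apart. Its root mean square deviation from its group was 0.477 on the log2 scale against 0.179 to 0.294 for the other 11 libraries. Its deviations rose with transcript length across genes (r = 0.275, and -0.234 and -0.223 in its partners). Some of the counts below are therefore also given without it. The column names of the count table carry a sample number that runs from 1 to 22 in each of 3 sets. All AMO1 DMSO libraries belong to 1 set and the L363-CFZr DMSO libraries to the others, 1 per time, so line and set cannot be told apart within these 12 libraries. A fit with the set as a term was possible over 36 libraries that add NCP22 and halofuginol. Among these only 1 set held both lines. It held AMO1 with NCP22 or halofuginol at 24 h, and L363-CFZr with DMSO or NCP22 at 6 h. No treatment and time was shared there, so this fit assumes that line, set and treatment at each time add without interaction, which was not tested.

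The range of fold changes differed by direction, and this bears on every gene below that was higher in L363-CFZr. Of 7415 genes with a mean of at least 20 CPM in L363-CFZr, 0 had an AMO1 mean under 12.5% of it, and the lowest was CT45A5, a cancer-testis gene, at 13.2%. Of 7404 genes with at least 20 CPM in AMO1, L363-CFZr lay under 12.5% for 151 and under 1% for 72. Taking the 30 genes with the lowest ratio and at least 50 CPM in L363-CFZr, their median level in single AMO1 libraries was 18.25% to 20.91% of untreated L363-CFZr with DMSO and 15.84% to 20.65% with NCP22 or halofuginol. It was 52.25% to 58.8% in AMO1 libraries with CFZ at 24 h. The cause of this floor was not tested, nor was it tested whether these AMO1 libraries hold RNA of AMO1 cells alone. If they do not, folds higher in L363-CFZr, those of ABCB1, CROT and HMOX1 included, are understated. Among low genes an exception was EPHA3, an ephrin receptor, at 0 to 0.793 CPM in AMO1 and 3.79 to 17.1 CPM in L363-CFZr.

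**Figure D1:**
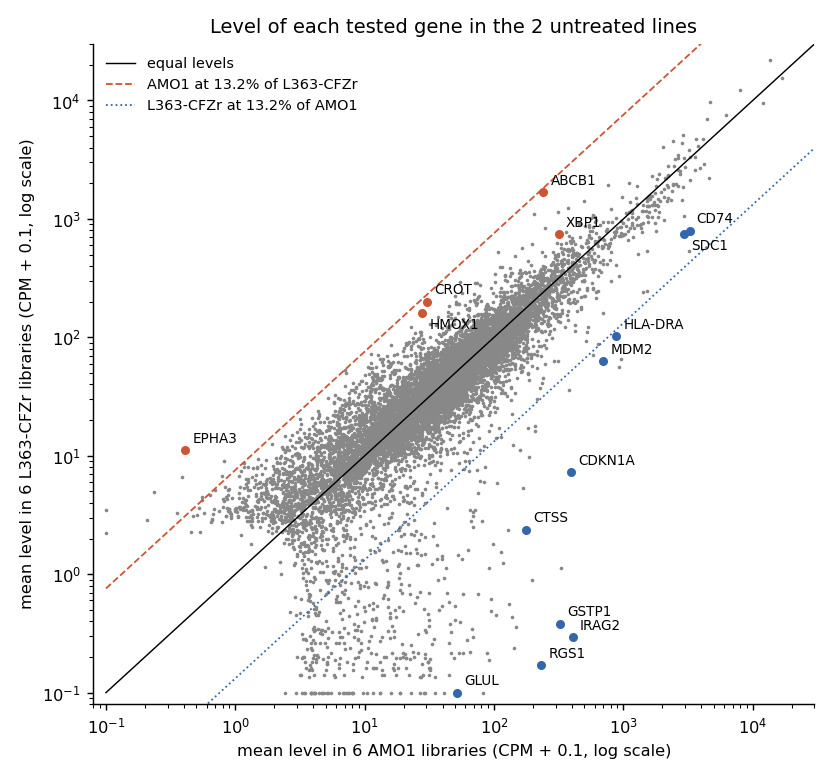
Mean level of the 11146 tested genes in 6 AMO1 libraries (horizontal axis) and 6 L363-CFZr libraries (vertical axis), in CPM plus 0.1 on log scales, with a line of equal levels and lines at 13.2% of the other line. Genes extend far beyond the dotted line on the side higher in AMO1 (RGS1, GSTP1, IRAG2), whereas on the other side ABCB1 lies close to the dashed line and only genes of low level, such as EPHA3, pass it.

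Both lines had the RNA of plasma cells. All 12 members of a plasma cell marker list passed the filter on low counts, and 3 were higher and 5 lower in L363-CFZr, or 6 and 5 without replicate 2 at 24 h. JCHAIN, which joins immunoglobulin polymers, averaged 4141 CPM in AMO1 and 4707 CPM in L363-CFZr and did not pass the test (adjusted p = 0.229). SDC1 (CD138), the surface proteoglycan that marks plasma cells, was 4.02-fold lower in L363-CFZr, at 524 to 960.0 CPM (median 754) against 2429 to 3494 CPM (median 2862) (log2 fold change -2.01 ± 0.10 (SE), adjusted p = 2.27e-10). Of the defining markers of other cells PAX5 and CD3D had 0 CPM in both lines, and CD14 averaged 0.108 CPM in AMO1 and 0.145 CPM in L363-CFZr. The B cell list summed to 143.6 to 189.1 CPM in AMO1 and 58.7 to 84.67 CPM in L363-CFZr. Of its 12 members 4 could be tested, and 3 were lower in L363-CFZr, among them the tetraspanin CD37 (log2 fold change -6.61 ± 0.26 (SE), adjusted p = 2.22e-11) and the B cell receptor subunit CD79B, at 95.3 and 45.3 CPM (-1.10 ± 0.17, adjusted p = 4.37e-05). Of the T and NK cell list only CD4 could be tested, at 207 and 214 CPM (adjusted p = 0.562). Of 12 myeloid markers 0 passed the filter, their summed level being 0.698 to 3.372 CPM in AMO1 and 1.442 to 2.935 CPM in L363-CFZr. Of 10 stromal markers 2 passed it, with ACTA2 lower (log2 fold change -5.48). The stromal list, COL1A1 and COL1A2 included, summed to 3.141 to 10.57 CPM in AMO1 and 1.692 to 7.337 CPM in L363-CFZr.

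The lines differed over a large part of the transcriptome. With time as a factor, 6570 of 11146 tested genes differed at an adjusted p under 0.05 (58.9%), 3253 higher (29.2%) and 3317 lower (29.8%) in L363-CFZr. A difference of at least 2-fold was called for 2113 genes (19%), 970 higher (8.7%) and 1143 lower (10.3%). The 6 and 6 libraries did not overlap for 3294 genes (29.6%). Without replicate 2 of L363-CFZr at 24 h, 7771 genes were called at an adjusted p under 0.05. Line accounted for 87.69% of the variance of the 500 most variable genes, time for 3.433% and libraries within a group for 6.922%, and the lines lay apart on the first principal component (87.87%). Over all tested genes the shares were 67.6% for line, 13.91% for time and 15.11% within groups. Since most tested genes were called, each group of genes below is to be read beside these shares and beside the median of all tested genes, a log2 fold change of 0.0098.

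Expression of ABCB1, the efflux pump for which CFZ is a substrate, was 7.03-fold higher in the resistant line. Its gene lies on chromosome 7, 87503017 to 87713323 (GRCh38). At 6 h it measured 252, 250.1 and 254 CPM in the 3 AMO1 libraries and 1708, 1817 and 1606 CPM in L363-CFZr, and at 24 h 242, 214 and 231 CPM and 1546, 1761 and 1698 CPM. Every L363-CFZr library lay far above every AMO1 library (log2 fold change 2.81 ± 0.08 (SE), adjusted p = 1.25e-12), and ABCB1 had the lowest AMO1 level relative to L363-CFZr, 14.2%, of the 1978 genes with at least 100 CPM in the resistant line. Of 13 tested members of an efflux transporter list 9 were higher and 1 lower (median log2 fold change 0.75). ABCB4, a phospholipid flippase and the closest relative of ABCB1, stood at 0.364 to 1.17 CPM in AMO1 and 6.77 to 14.3 CPM in L363-CFZr (3.57 ± 0.31, adjusted p = 1.49e-07). ABCA3, a lipid transporter, and ABCC2 (MRP2), an exporter of conjugates, were higher by 1.76 ± 0.19 and 1.40 ± 0.24 on the log2 scale. ABCC1 (MRP1) was the member that was lower (-0.50 ± 0.20, adjusted p = 0.0371), with ranges that overlapped (78.5 to 108 CPM against 33.4 to 147 CPM). ABCG2 could not be tested. It was found at 0.972 to 3.57 CPM in AMO1 and at 0 CPM in all 6 L363-CFZr libraries.

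The genes around ABCB1 on chromosome 7 did not all differ in the same direction. Within 2 Mb of its start 11 genes, ABCB1 included, could be tested. The nearest ones at lower coordinates, ABCB4, CROT, TMEM243 and DMTF1, were higher like ABCB1. CROT, a peroxisomal carnitine acyltransferase 367.7 kb from the ABCB1 start, was found at 27.2 to 37.3 CPM (median 29.01) in AMO1 and 173 to 231 CPM (median 199) in L363-CFZr (log2 fold change 2.71 ± 0.08 (SE), adjusted p = 1.23e-12), a fold of 6.54. TMEM243 and DMTF1, a MYB-like transcription factor, differed by 0.96 and 1.25 on the log2 scale. On the other side DBF4, the activator of the replication kinase CDC7, was lower by 0.81 at 162.9 kb, and SLC25A40 by 0.40. ADAM22 (0.15, adjusted p = 0.126) and SRI (-0.20, adjusted p = 0.176) did not pass the test. Farther out ELAPOR2 (-0.79) and the glutamate receptor GRM3 (-3.01) were lower.

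**Figure D2:**
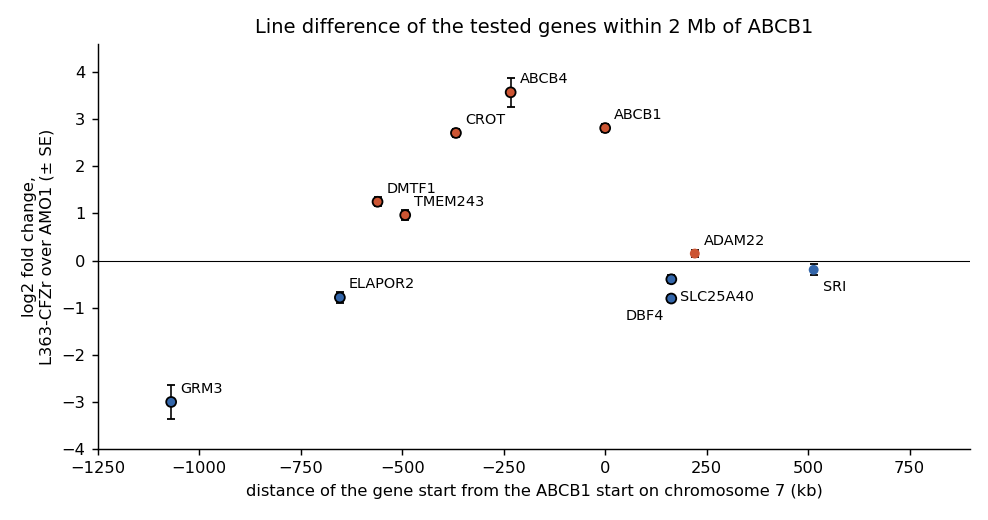
Log2 fold change with SE (vertical axis) of the 11 tested genes against the distance of their start from the ABCB1 start in kb (horizontal axis), black outlines marking an adjusted p under 0.05. The 5 genes from DMTF1 to ABCB1 lie above 0, from 0.96 to 3.57, between lower genes on both sides.

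PSMB5, the target of CFZ, was 1.57-fold higher in L363-CFZr, with AMO1 at 62.7 to 91.2 CPM (median 73.8) and L363-CFZr at 57.2 to 157 CPM (median 123) (log2 fold change 0.65 ± 0.14 (SE), adjusted p = 0.00091). Of the 6 L363-CFZr libraries only replicate 2 at 24 h lay within or below the AMO1 range, and without that library the difference was 0.77 ± 0.07, adjusted p = 6.68e-09. Of 13 tested 20S core genes 2 were higher, PSMB5 and PSMA6 (0.49), and 2 lower, PSMB1 and PSMB6 (-0.53 and -0.47). Without replicate 2 at 24 h the count became 9 higher and 3 lower, and with the set of sample numbers as a term it was 6 higher and 0 lower, the calls of PSMB1 and PSMB6 being lost. The 19S regulatory particle, which binds and unfolds ubiquitinated protein, had 2 higher and 3 lower of 22, or 11 and 4 without that library, and 7 and 1 with the set term, so these counts rest on such choices. All but 1 of the 5 immunoproteasome and PA28 genes were lower. PSMB9, the inducible subunit that replaces PSMB6, was found at 56.9 to 107 CPM (median 83.9) in AMO1 and 4.402 to 16.1 CPM (median 12.98) in L363-CFZr, 6.78-fold lower (-2.76 ± 0.14, adjusted p = 3.87e-10). PSMB8, which replaces PSMB5, was 2.29-fold lower, at 32.6 to 80.2 CPM against 127 to 174 CPM. Of 16 assembly factors and regulators 7 were lower and 0 higher, but 3 lower and 1 higher with the set term, and 6 and 3 in the NCP22 and halofuginol libraries. The 7 included NFE2L2, described below, NFE2L1 (NRF1), the transcription factor that restores proteasome genes after inhibition, at 151 to 201 CPM (median 163) against 323 to 349.5 CPM (median 337) (-0.98 ± 0.08, adjusted p = 1.06e-07), and POMP, a chaperone of core assembly (-0.33 ± 0.12, adjusted p = 0.0244, and adjusted p = 0.768 with the set term).

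Stress pathways were mixed, with single genes far apart. HMOX1 (heme oxygenase), an NRF2 target that degrades heme (chromosome 22, 35380361 to 35394214), was 5.201-fold higher in L363-CFZr. Its levels were 27.2, 39.4 and 33.5 CPM in AMO1 and 219, 223 and 284 CPM in L363-CFZr at 6 h, then 21.9, 22.7 and 22.6 CPM and 91.8, 54.3 and 96.1 CPM at 24 h (log2 fold change 2.38 ± 0.20 (SE), adjusted p = 7.57e-08). The groups did not overlap at either time. NFE2L2, which encodes NRF2, was itself 2.47-fold lower (log2 fold change -1.31 ± 0.08). Of 20 tested NRF2 target genes 8 were higher and 4 lower (median 0.25), with NQO1 higher (0.78 ± 0.11, adjusted p = 2.33e-05) and the ferritin chains lower. FTL, the light chain of the iron store, was found at 2684 to 3873 CPM (median 3071) in AMO1 and 301 to 711 CPM (median 550.4) in L363-CFZr, 6.07-fold lower (-2.60 ± 0.13, adjusted p = 2.27e-10), and the heavy chain FTH1 was 2.61-fold lower. Ferritin has many processed pseudogenes, and 33.5% of the 31-mers of FTL and 63.6% of those of FTH1 occur in other transcripts.

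Of 23 heat shock genes 9 were higher and 9 lower (median -0.02), or 7 and 5 with the set term. HSPA1A, the inducible HSP70, stood at 10.6 to 36.99 CPM (median 21.9) in AMO1 and 34.9 to 152 CPM (median 90.3) in L363-CFZr (log2 fold change 1.82 ± 0.15 (SE), adjusted p = 5.97e-08), with higher levels in L363-CFZr at each time, although 76% of its 31-mers are shared with other transcripts. The unfolded protein response list was also split, with 10 higher and 8 lower of 34 (median -0.01). XBP1, a transcription factor of both the unfolded protein response and the plasma cell, was 2.37-fold higher, at 529 to 823 CPM (median 799) in L363-CFZr against 306 to 322 CPM (median 319) in AMO1 (1.24 ± 0.10, adjusted p = 7.66e-08). ERN1 (IRE1), the kinase and RNase that splices XBP1 RNA, was 2.86-fold lower (-1.52 ± 0.15, adjusted p = 4.45e-07), and the ER stress kinase EIF2AK3 (PERK) was 2.73-fold lower (-1.45 ± 0.11, adjusted p = 2.25e-08). The chaperone HSPA5 (BiP) averaged 1167 and 1120.0 CPM and was not called (adjusted p = 0.511).

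Plasma cell transcription factors differed gene by gene, with 8 higher and 12 lower of 26 tested (median -0.24). IRF4, on which myeloma cells depend, was not called (AMO1 291 to 606 CPM, L363-CFZr 316 to 564 CPM, adjusted p = 0.371). MYB, a regulator of haematopoietic progenitors, was 30.8-fold lower, at 3.85 to 6.15 CPM (median 5.35) against 110.4 to 244 CPM (median 163) (log2 fold change -4.95 ± 0.18 (SE), adjusted p = 8.01e-12). KLF2, a regulator of lymphocyte quiescence and homing, was 11.1-fold lower and POU2AF1, a coactivator of immunoglobulin promoters, 4.299-fold lower. ETS1 was 2.75-fold higher (1.46 ± 0.10, adjusted p = 5.76e-09), and TCF3 (E2A) was higher by 0.44 ± 0.08, adjusted p = 0.000126.

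Known targets of the MAF class of myeloma translocations were mostly higher in L363-CFZr. MAF, a transcription factor activated by translocation in some myelomas, could not be tested. It lay at 0.729 to 5.51 CPM in AMO1 and at no more than 2.11 CPM in L363-CFZr, apart from 18.7 CPM in replicate 2 at 24 h. Of 10 tested genes that MAF factors are known to raise, 7 were higher and 1 lower in L363-CFZr (median 1.28). They included NUAK1 (2.26 ± 0.19), the chemokine receptor CCR1 (1.71 ± 0.12), RND3 (1.61 ± 0.12), the mTOR inhibitor DEPTOR (1.52 ± 0.08) and the integrin ITGB7 (1.10 ± 0.08), while AHNAK was lower (-0.88 ± 0.27). CCND2, a cyclin D that the same factors raise, was not called (-0.20 ± 0.12, adjusted p = 0.169). CCND1 was low in both lines, at 6.801 to 10.7 CPM in AMO1 and 0.324 to 1.101 CPM in L363-CFZr (-3.45 ± 0.26, adjusted p = 3.45e-08). MYC was found at 406 to 425 CPM in AMO1 and 320.3 to 407 CPM in L363-CFZr (-0.24 ± 0.08, adjusted p = 0.0112), but with the set of sample numbers as a term its difference turned to 0.07 (adjusted p = 0.616), so no direction is given for it. MYCN was low yet higher in L363-CFZr, at 5.72 to 10.6 CPM against 0.972 to 1.98 CPM.

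Most genes of a growth arrest and DNA damage response list were lower in L363-CFZr. Of 23 tested members 19 were lower and 0 higher, against 29.8% lower among all tested genes, 17 of them by at least 2-fold. Their median log2 fold change was -1.68, and -1.86 to -1.66 over the alternatives. CDKN1A (p21), an inhibitor of cyclin-dependent kinases (chromosome 6, 36676460 to 36687337), was found at 345 to 432 CPM (median 400.1) in AMO1 and 4.21 to 10.2 CPM (median 6.92) in L363-CFZr, 53.7-fold lower (log2 fold change -5.75 ± 0.16 (SE), adjusted p = 8.57e-13). MDM2, a ubiquitin ligase, was at 505 to 882 CPM (median 698) and 44.4 to 101 CPM (median 59.95), 11.1-fold lower (-3.47 ± 0.12, adjusted p = 5.71e-12). For neither gene did the lines overlap, and 17.7% of the 31-mers of MDM2 occur in other transcripts. FAS, a death receptor, was 11.9-fold lower and BBC3 (PUMA), a BH3-only killer protein, 5.76-fold lower. SESN1, DDB2, BAX, ZMAT3 and TIGAR were lower by 4.18, 5.25, 3.21, 3.92 and 2.77-fold. GDF15, a secreted stress factor, was found at 19.4 to 29.9 CPM in AMO1 and at 0 to 0.324 CPM in L363-CFZr. 

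Apoptosis genes differed in both directions. Of 23 tested members of the BCL2 family and death receptors 7 were higher and 13 lower (median -0.47). This list shares BBC3, BAX, FAS and TNFRSF10B with the growth arrest and DNA damage response list. MCL1, a survival protein on which many myeloma cells rely, was 2.82-fold lower, at 494 to 593 CPM (median 533) against 1268 to 1721 CPM (median 1584) (log2 fold change -1.50 ± 0.10 (SE), adjusted p = 6.13e-09). BCL2 was lower by less (-0.52 ± 0.11, adjusted p = 0.000706), while the survival protein BCL2L1 (BCL-XL) was higher (0.52 ± 0.11, adjusted p = 0.000625), and both overlapped between lines. Among the killer proteins BMF was higher (1.03 ± 0.10) and PMAIP1 (NOXA), BIK and BCL2L11 (BIM) lower (-1.99 ± 0.14, -2.29 ± 0.27 and -0.50 ± 0.09).

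Many genes of the cell cycle were lower in L363-CFZr. Of 28 tested S phase and replication genes 24 were lower and 0 higher (median -0.85), among them the licensing factor CDT1 (-1.51 ± 0.10), the sliding clamp PCNA (-1.43 ± 0.12), thymidylate synthase TYMS (-1.30 ± 0.12) and the helicase subunit MCM7 (-1.23 ± 0.11). PCNA was found at 162 to 292 CPM (median 237) in AMO1 and 48.1 to 106 CPM (median 89.7) in L363-CFZr. Of 30 genes of G2 and mitosis 21 were lower and 1, BUB3, higher (median -0.45). With the set term 14 were lower and 3 higher, and in the NCP22 and halofuginol libraries 19 and 6. The spindle checkpoint kinase TTK was 4.17-fold lower and AURKB 3.98-fold lower, but PLK1, CCNB1 and CDC20 were not called (adjusted p = 0.41, 0.872 and 0.493). Of 19 CDK inhibitors and G1 regulators, CDKN1A included, 3 were higher and 10 lower. CDKN2C (p18) was 2.59-fold higher (1.37 ± 0.13, adjusted p = 4.91e-07) and CDK6 1.997-fold higher, while CCNE1, RB1 and CDKN1B (p27) were lower (-1.19 ± 0.12, -0.64 ± 0.09 and -0.70 ± 0.10). Doubling times of the lines were not analysed here.

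Antigen presentation by major histocompatibility complex (MHC) class II had the lowest median of the lists. Its molecules are switched on together by the coactivator CIITA, which is recruited to an X box and a Y box a short distance before the start of each gene. Of 17 tested genes 14 were lower and 1 higher, 12 lower by at least 2-fold, with a median log2 fold change of -2.78 (-3.24 to -2.09 over the alternatives). HLA-DRA was found at 689 to 1079 CPM (median 865) in AMO1 and 59.8 to 122 CPM (median 107) in L363-CFZr, 8.49-fold lower (log2 fold change -3.09 ± 0.13 (SE), adjusted p = 6.31e-11). CD74, the invariant chain, was 4.07-fold lower, at 568 to 969 CPM (median 805) against 2763 to 3847 CPM (median 3102). CTSS, the protease that trims the invariant chain, was 74.5-fold lower (163 to 194 CPM against 1.83 to 2.88 CPM). HLA-DOA had 0 counts in the 6 L363-CFZr libraries against 32.7 to 49.9 CPM in AMO1, which makes it at least 293-fold lower when the floor is 3 counts over the 6 libraries. CIITA itself was 5.83-fold lower (-2.54 ± 0.35, adjusted p = 1.67e-05), at 47.2 to 74.8 CPM in AMO1 and 4.71 to 31.6 CPM in L363-CFZr, where the highest value came from replicate 2 at 24 h. RFX5, which binds the X box, was lower by less (-0.99 ± 0.07), its partner RFXANK was higher (0.42 ± 0.13) and RFXAP was not called.

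The promoters of these genes are shown because the list moved together. RefSeq promoters of GRCh38.p14, from 250 bases before to 50 bases after the start, matched 14 of the 17 genes. These included the regulators RFX5, RFXANK and RFXAP but not HLA-DRA. An X box written as AGNNACNG followed after 10 to 30 bases by a Y box ATTGG on the same strand, searched on both strands, occurred in 6 of those 14 (42.9%) and in 314 of all 27305 promoters (1.15%). The boxes are known from class II promoters, so a higher share in this list was fixed beforehand and is no result of these data. Each stretch runs 5′ to 3′ along the gene, with the X and Y box letters in capitals.
HLA-DMA (chr6:32953166-32953216, minus strand): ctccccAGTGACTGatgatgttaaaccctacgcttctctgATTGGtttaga
HLA-DOA (chr6:33009648-33009698, minus strand): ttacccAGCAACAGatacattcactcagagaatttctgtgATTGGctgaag
HLA-DQA1 (chr6:32637298-32637348, plus strand): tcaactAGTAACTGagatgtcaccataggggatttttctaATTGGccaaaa
HLA-DQB1 (chr6:32666735-32666784, minus strand): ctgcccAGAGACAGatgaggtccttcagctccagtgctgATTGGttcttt
HLA-DRB1 (chr6:32589884-32589933, minus strand): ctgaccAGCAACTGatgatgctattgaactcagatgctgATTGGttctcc
HLA-DRB5 (chr6:32530367-32530416, minus strand): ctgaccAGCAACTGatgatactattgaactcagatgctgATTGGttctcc

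The pair of boxes did not sort the genes by their difference. Log2 fold changes of those with the pair, other than HLA-DOA, whose fold is a bound, ran from -5.75 (HLA-DQA1) through -2.78 (HLA-DMA), -1.49 (HLA-DQB1) and -0.93 (HLA-DRB1) to -0.01 for HLA-DRB5, which was not called. HLA-DPB1, in whose promoter this pair was not found, was lower by 20.2-fold. Of the others without the pair, HLA-DOB (-4.17), HLA-DPA1 (-3.66), HLA-DMB (-2.98) and CD74 (-2.03) were lower. The regulators RFX5 (-0.99), RFXAP (-0.15) and RFXANK (0.42) also lacked the pair. A promoter without the pair can still hold the letters of a single box. HLA genes are polymorphic and alike, and 48.9% of the 31-mers of HLA-B and 19.6% of those of HLA-DRB5 occur in other transcripts, so values of single HLA genes are uncertain.

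Genes of MHC class I presentation were lower more often than higher. Of 15 class I presentation genes 3 were higher and 9 lower (median -0.58). TAP1, the peptide transporter, was found at 386 to 644 CPM (median 517) in AMO1 and 56.5 to 126 CPM (median 91.9) in L363-CFZr, 5.65-fold lower (-2.50 ± 0.08, adjusted p = 3.94e-12). B2M, the light chain, was 2.104-fold lower and HLA-F 5.42-fold lower, while HLA-B was not called (adjusted p = 0.996). Interferon-stimulated genes had 7 higher and 11 lower of 32 (median -0.07), beside 29.2% and 29.8% of all tested genes, and thus near the background, and 12 and 12 without replicate 2 of L363-CFZr at 24 h. IRF1, a transcription factor that interferon induces, was 7.62-fold lower (log2 fold change -2.93 ± 0.11 (SE), adjusted p = 1.49e-11), at 5.83 to 9.61 CPM (median 7.37) against 49.9 to 71.5 CPM (median 56.6), and the GTPase GBP2 was found at 9.72 to 17.4 CPM in AMO1 and 0 to 0.367 CPM in L363-CFZr. In the other direction IFITM1, an antiviral membrane protein, was 2.51-fold higher (1.33 ± 0.13, adjusted p = 4.66e-07), MX1 2.198-fold and IFI6 2.11-fold. Of 20 NF-kB pathway genes 3 were higher and 8 lower, among them TNFAIP3 and TRAF3, which restrain the pathway (-1.42 ± 0.09 and -1.37 ± 0.11).

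Target genes of ATF4 were mostly lower at baseline in the resistant line. Of 33 tested genes of the list, ATF4 itself included, 25 were lower and 5 higher, 13 and 2 of them by at least 2-fold (median -0.86, and -0.90 to -0.74 over the alternatives). The list shares GDF15 and SESN2 with the growth arrest and DNA damage response list. ATF4 RNA was lower by less (-0.42 ± 0.13, adjusted p = 0.0119) and overlapped between lines (467 to 725 CPM against 308 to 491 CPM). DDIT3 (CHOP), which promotes death under stress, was found at 73.3 to 86.8 CPM (median 78.2) in AMO1 and 8.44 to 32.3 CPM (median 25.2) in L363-CFZr, 3.45-fold lower (log2 fold change -1.79 ± 0.19 (SE), adjusted p = 1.34e-06). PPP1R15A (GADD34), the phosphatase subunit that ends eIF2 phosphorylation, was 3.69-fold lower. The amino acid enzymes ASNS, PSAT1, SHMT2 and MTHFD2 were lower by 1.72, 1.88, 2.22 and 2.58-fold. Higher members were VLDLR (4.04-fold), the glycoprotein hormone STC2 (3.87-fold), VEGFA, PHGDH and PYCR1.

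Upstream of ATF4, GCN2 (EIF2AK4) was 1.65-fold higher, at 68 to 82.2 CPM (median 73.2) in L363-CFZr against 39.2 to 48.3 CPM (median 45.5) in AMO1 (log2 fold change 0.72 ± 0.08 (SE), adjusted p = 3.36e-06). IMPACT, an inhibitor of GCN2 activation, was 2.296-fold higher (1.20 ± 0.16, adjusted p = 1.19e-05). The eIF2 kinases HRI (EIF2AK1) and PKR (EIF2AK2) were not called (adjusted p = 0.0788 and 0.856).

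EPRS1, whose product joins the glutamyl- and prolyl-tRNA synthetases (chromosome 1, 219968600 to 220046530), was 1.47-fold higher. It measured 301, 318 and 329.8 CPM in AMO1 and 461, 476 and 446 CPM in L363-CFZr at 6 h, and 376, 355 and 367 CPM and 549, 549 and 532 CPM at 24 h, so that the lines did not overlap (log2 fold change 0.56 ± 0.07 (SE), adjusted p = 5.56e-06). EPRS1 lies within 50 neighbouring tested genes, EIF2D to FBXO28 (206571292 to 224162047), of which 31 were higher and 8 lower (median 0.72). Whether its difference goes beyond theirs was not tested. Among 23 genes of the cytosolic synthetases and their partners 4 were higher and 6 lower, or 8 and 7 without replicate 2 of L363-CFZr at 24 h. WARS1, tryptophanyl-tRNA synthetase and also an interferon-induced gene, was 7.802-fold lower, at 57.8 to 82.2 CPM (median 69.4) against 358 to 825 CPM (median 579.7) (-2.96 ± 0.12, adjusted p = 3.55e-11). Threonyl-tRNA synthetase TARS1 was lower (-0.76 ± 0.09) and VARS1, for valine, higher (0.83 ± 0.08). A list of proline synthesis, breakdown, transport and use, EPRS1 included, held more genes higher than lower. Of 17 tested 11 were higher, against 29.2% of all tested genes, and 2 lower (median 0.56). PYCR1, which makes proline from pyrroline-5-carboxylate, was 1.24-fold higher (0.32 ± 0.08, adjusted p = 0.00237), at 114 to 157 CPM (median 134) against 86.4 to 127 CPM (median 106). PEPD, which releases proline from dipeptides, was 3.85-fold higher, the proline transporter SLC36A4 4.06-fold and the arginase ARG2 3.68-fold. ALDH18A1, the first enzyme from glutamate to proline, and the amino acid importer SLC38A2 were lower (-0.24 ± 0.07 and -1.09 ± 0.10).

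RNAs encoded by mitochondrial DNA were higher in L363-CFZr. Of 13 respiratory chain genes 12 were higher (median 0.77, and 0.57 at 6 h and 0.95 at 24 h), all but MT-ND1 (adjusted p = 0.712). MT-CO2, a subunit of cytochrome c oxidase, was found at 4278 to 5050.0 CPM (median 4630.0) in AMO1 and 8469 to 10660.0 CPM (median 9851) in L363-CFZr (log2 fold change 1.07 ± 0.09 (SE), adjusted p = 7.97e-08), with no overlap. However, 50.5% of the 31-mers of MT-CO2 occur in other transcripts. Mitochondrial genes took 4.343% to 4.891% of the counts in AMO1 and 7.088% to 8.746% in L363-CFZr libraries. This share is also used as a sign of RNA quality, and its part in these differences was not tested.

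Glycolysis genes were lower in 15 of 24 cases and higher in 2 (median -0.46), or 10 and 3 with the set term. HK1, the housekeeping hexokinase, was nearly absent in L363-CFZr, at 0 to 1.45 CPM (median 0.2403) against 31.2 to 47.03 CPM (median 37.6) in AMO1, 80.5-fold lower (log2 fold change -6.33 ± 0.31 (SE), adjusted p = 2.67e-10). Its relative HK2 was lower by 1.89-fold. The glucose transporter SLC2A3 (GLUT3) was 6.05-fold lower, and the lactate carrier SLC16A1 (MCT1) 1.77-fold higher. Cytosolic ribosomal protein genes had 15 lower and 0 higher of 55, but 30 lower and 10 higher without replicate 2 of L363-CFZr at 24 h. Their summed level ran from 30310 to 97210 CPM over L363-CFZr libraries and from 81770 to 103200 CPM over AMO1 libraries, so no direction is given for this group. Of 23 sterol synthesis genes 4 were higher and 6 lower, and the median sign was not kept over the alternatives. Of 28 epigenetic regulators 4 were higher and 10 lower, or 5 and 16 without that library, including KDM5B, a histone H3 lysine 4 demethylase, lower by 3.704-fold (-1.89 ± 0.11, adjusted p = 1.82e-09).

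Members of a list of surface antigens and therapy targets were lower more often than higher, 14 against 7 of 29 tested. CD38, the target of daratumumab, was 2.42-fold lower, at 17.5 to 32.6 CPM (median 20.4) against 47.5 to 58.9 CPM (median 52.4) (log2 fold change -1.28 ± 0.12 (SE), adjusted p = 2.74e-07). TNFRSF17 (BCMA) was higher (0.48 ± 0.18, adjusted p = 0.0324) with overlapping ranges (113 to 162 CPM in AMO1, 70.1 to 311 CPM in L363-CFZr), and the difference was 0.65 ± 0.09, adjusted p = 1.5e-06 without replicate 2 at 24 h. SLAMF7 was called (-0.19 ± 0.07, adjusted p = 0.0302) but not with the set of sample numbers as a term (adjusted p = 0.42). FCRL5, LY9 and CD44 averaged 15.1, 31.3 and 74.6 CPM in AMO1 and 0.233, 0.598 and 4.73 CPM in L363-CFZr. CD70, a ligand of CD27, was 5.71-fold lower, and CD276 (B7-H3), a checkpoint ligand, 3.905-fold higher (1.97 ± 0.11, adjusted p = 6.03e-10). CRBN, the cereblon through which immunomodulatory drugs act, was not called (adjusted p = 0.232). Of 17 cancer-testis antigens 7 were higher and 7 lower, 1 and 7 of them by at least 2-fold. MAGEC1 was 2.68-fold higher, whereas MAGEA10 and MAGEB1 averaged 26.6 and 11.5 CPM in AMO1 and 0 CPM in L363-CFZr.

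Several genes were detected in AMO1 alone. A level of at least 5 CPM in all 6 libraries of a line with at most 3 counts in total in the other was met by 88 genes for AMO1 and 0 for L363-CFZr. The floor of AMO1 levels described above, whose cause was not tested, bears on that 0, so the 2 counts are not to be compared as a trait of the lines. Some had 0 counts in L363-CFZr, and their folds are lower bounds with the floor at 3 counts over the 6 libraries. TNFRSF10D, a decoy receptor for TRAIL, was at least 634.1-fold lower in L363-CFZr, the glutamine synthetase GLUL at least 391.4-fold and the chemoattractant receptor GPR15 at least 376.1-fold. RGS1, a regulator of G protein signalling, had 4914 counts in AMO1 and 2 in L363-CFZr, a ratio of 2562 with a 95% counting interval of 709 to 21160. PTPN7, a phosphatase of lymphocytes, had 1878 and 2, and the growth factor receptor FGFR1 1840 and 3. For CYTL1 the reverse was found at a low level, with a mean of 3.37 CPM in L363-CFZr and 0 counts in AMO1.

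Among genes seen in both lines with a mean of at least 10 CPM in the higher line, the largest differences lower in L363-CFZr included IRAG2 (-10.59 ± 0.27), the detoxifying enzyme GSTP1 (-10.03 ± 0.24) and SLC43A3, a purine transporter (-8.42 ± 0.21). GSTP1 was found at 267 to 398 CPM (median 314) in AMO1 and 0 to 1.01 CPM (median 0.105) in L363-CFZr. IRAG2 measured 357, 360.5 and 362 CPM in AMO1 at 6 h and 460.1, 459 and 439 CPM at 24 h, and at most 0.842 CPM in any L363-CFZr library. Further genes of this kind were SERPINE2, KLHL6, FAM107B, the sialoglycoprotein SPN (CD43), SERPINF1, S100A4 and PREX1, with log2 fold changes from -8.29 to -7.76.

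At the same minimum level, among genes higher in L363-CFZr, after EPHA3 (log2 fold change 4.98 ± 0.49 (SE), adjusted p = 4.83e-07), came RASAL2, a Ras GTPase-activating protein (2.82 ± 0.16), ABCB1, L3MBTL4 (2.80 ± 0.33) and CROT, followed by the ubiquitin ligase HECW1, DCLK2, MAP1A, RASSF4 and MFAP3L at 2.70 to 2.50. RASAL2 was found at 5.83 to 9.11 CPM (median 6.47) in AMO1 and 36.2 to 67.9 CPM (median 48.4) in L363-CFZr. MAP1A, a protein of microtubules, measured 109.7 to 291 CPM in L363-CFZr against 23.4 to 30.8 CPM in AMO1. Of the 12 genes in each direction, 2 of the higher and 1 of the lower had no name in the annotation used. EPHA3 apart, these folds lie close to the floor of AMO1 levels described above.

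Genes called at both times differed in the same direction with few exceptions. At 6 h 6375 of 10593 tested genes differed (60.2%) and at 24 h 4454 of 11170 (39.9%), or 7338 without replicate 2 of L363-CFZr at 24 h. Of 10553 genes tested at both times 3613 were called at both, 3599 of them in the same direction. The difference between lines itself differed between times for 92 genes (0.825%), 42 (0.377%) more positive and 50 (0.449%) more negative at 24 h, or for 751 without replicate 2 of L363-CFZr at 24 h. The pellets of the 2 times were stored differently, so time and storage cannot be told apart in either line, nor time and set in L363-CFZr, where each time is a set of its own. KLF2 was such a gene, lower by 2.09 on the log2 scale at 6 h and by 4.84 at 24 h (difference -2.79 ± 0.35, adjusted p = 0.00351). Its level in AMO1 was 27.5, 31.9 and 40.5 CPM at 6 h and 122, 126 and 122 CPM at 24 h, while L363-CFZr measured 2.9 to 9.42 CPM. KCNMB4, a potassium channel subunit, had 0 CPM in the 3 L363-CFZr libraries at 6 h and 2.17, 2.201 and 2.16 CPM at 24 h, against 20.4 to 30.6 CPM in AMO1. Of the sterol synthesis genes 6 of 23 had a more positive difference at 24 h, among them INSIG1, which holds back sterol synthesis, at -2.42 and -1.09.

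The same contrast was then made in libraries outside the comparison. In 12 L363-CFZr and 12 AMO1 libraries with NCP22 or halofuginol 8981 of 11525 genes differed between lines (77.9%). Of 2105 genes that differed by at least 2-fold with DMSO, 2090 were called in the same direction there. These libraries come from the same lines and the same series, so they are no independent check of the differences. ABCB1 differed by 2.78, CDKN1A by -5.83, HLA-DRA by -2.94 and EPRS1 by 0.50 on the log2 scale in those libraries. With the set of sample numbers as a term the values were 2.58, -5.52, -2.88 and 0.56.

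Differences also gathered along chromosomes. The median log2 fold change was lowest on chromosome 13 (-0.49 over 192 genes, 59.38% of them lower) and on chromosomes 18 (-0.31) and 21 (-0.26). It was highest, beside the mitochondrial genes, on chromosomes 8 (0.29), 5 (0.22) and 22 (0.21). RB1, the retinoblastoma gene (chromosome 13, 48303744 to 48599436), was lower by 1.56-fold, at 47.4 to 99.8 CPM against 77.1 to 142 CPM. Over 9824 runs of 50 neighbouring tested genes the lowest median was -0.98, on chromosome 2 from ACP1 to ATAD2B (264140 to 23927123), where 38 genes were lower and 7 higher. Low runs were also found on the short arm of chromosome 17, -0.91 from NLGN2 to NCOR1 and from TLCD3A to MED11, and on chromosome 6 from REV3L to MAP7 (-0.84). The highest run, 0.86, lay on chromosome 1 from DNAH14 to PCNX2 (224896262 to 233295725), with 43 genes higher and 2 lower, followed by others on chromosome 1 and by SRFBP1 to TXNDC15 on chromosome 5 (0.82). Neighbouring genes are not independent, and DNA copy number was not analysed here.

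**Figure D3:**
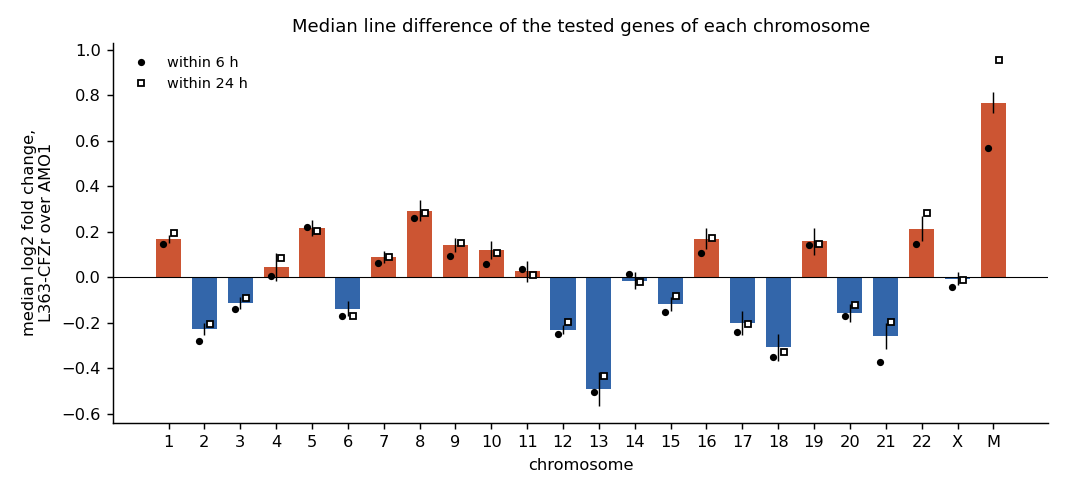
Median log2 fold change of the tested genes of each chromosome (bars), with the SD of single libraries within their groups as error bars and the medians within 6 h (circles) and 24 h (squares). Chromosome 13 lies lowest at -0.49 and mitochondrial genes (M) highest at 0.77, and both times fall on the same side of 0 for those 2.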

How the data were processed

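The values used were whole-number counts per gene, deposited for 66 libraries in 1 table that holds no other columns of samples. Per the labels and the study's methods the authors made stranded poly(A) libraries, read them as pairs and counted them by pseudo-alignment with kallisto. The methods name GRCh38, while the submitters' processing notes name hg19. Not given in the sources used here are the version of kallisto, its annotation and how transcripts were summed to genes. Groups came from the labels.

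From these counts, genes were tested with edgeR 4.0.16 in R 4.3.3 (quasi-likelihood F test, TMM scaling, a minimum count of 10 and total of 15, time as a factor, Benjamini-Hochberg adjustment, threshold 0.05). Names and positions came from GENCODE 44, which named 95.7% of the IDs. Each SE was obtained from F, as the fold change on the log2 scale over its square root. DESeq2 1.42.0 and the other alternatives are given in the closing section. GC content was known for 98.37% of tested genes. The fits were also run on simulated counts. These held no library that stood apart, no difference between sets and no floor, so such features were not covered. Replicate pairs correlated at 0.9328 to 0.9874 and 0 were identical.

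The comparison and all gene lists were chosen with earlier results of these data known. Named genes were a panel of 50, the 12 largest differences per direction (at least 10 CPM, no overlap), the 12 highest genes per line detected in 1 line only, up to 4 called members per list and the 5 largest changes with time per direction. Any others were chosen after their values were seen, and some named by this rule are not reported here. Total counts of 2487872 to 5005629 per library set the precision.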

Additional observations from a re-analysis of the deposited data

Results flagged for a closer look

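The difference between lines changed between 6 h and 24 h for several of the named genes, by the test of that change itself (edgeR, quasi-likelihood, adjusted after Benjamini and Hochberg), and these are given as the log2 difference at 24 h minus that at 6 h. Time and storage of the pellets cannot be told apart in either line, nor time and set of sample numbers in L363-CFZr, and the cause was not tested.

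KLF2 changed by -2.79, the phosphatase subunit PPP1R15A by -1.74, the kinase PIM1 by -1.04 and the costimulatory receptor CD28 by -0.64. The difference of CD28 turned its sign, from 0.48 at 6 h to -0.11 at 24 h, as AMO1 measured 352, 364 and 388 CPM and then 525, 519.8 and 500.1 CPM, and L363-CFZr 545, 523 and 502 CPM and then 477, 469.9 and 465 CPM. PPP1R15A measured 136, 146 and 116 CPM and then 228, 255 and 211 CPM in AMO1, and 60.5, 64.2 and 69.3 CPM and then 36.01, 31.6 and 33.6 CPM in L363-CFZr. WARS1 changed by 0.70, and the sterol synthesis genes INSIG1 and HMGCS1 by 1.30 and 1.14. HMGCS1, the synthase that makes HMG-CoA, measured 247, 262 and 330.5 CPM and 206, 204 and 199 CPM in AMO1 and 72.2, 65.9 and 60.02 CPM and 123, 89.5 and 103 CPM in L363-CFZr.

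Toward more positive values stood KCNMB4 (5.64, a fitted value over 0 CPM in the 3 L363-CFZr libraries at 6 h, and so no measured size), the adhesion molecule L1CAM (4.08), ADGRA2 (3.85), the sodium channel SCN4A (3.41) and the integrin ITGAL (2.31). L1CAM was found at 0, 0.336 and 0.421 CPM in L363-CFZr at 6 h and at 9.19, 17.2 and 10.1 CPM at 24 h, with AMO1 at 7.196 to 21.03 CPM. ITGAL, a subunit of LFA-1, stood at 0.324, 0.336 and 0.632 CPM and then 2.9, 3.302 and 2.403 CPM in L363-CFZr, far below 30.4 to 41.5 CPM in AMO1 at both times.

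Toward more negative values stood ENSG00000269339 (-15.70, fitted over 0 CPM in the 3 AMO1 libraries at 6 h, and so no measured size), ARHGEF33 (-6.06), ITPRIPL2 (-5.68) and PPIP5K2 (-4.68). These 4 were low in the AMO1 libraries at 6 h and varied several-fold among L363-CFZr replicates, and as for SCN4A the fitted difference turned its sign between the times. For CD28, SCN4A and these 4 the difference at 24 h did not pass the test. PPIP5K2, an inositol pyrophosphate kinase, measured 150.0, 68.2 and 236 CPM in AMO1 at 6 h and 2998, 3814 and 2764 CPM at 24 h, against 949, 2131 and 4503 CPM and 807, 2922 and 2508 CPM in L363-CFZr. ITPRIPL2 measured 30.1, 7.54 and 49.6 CPM and 1182, 1791 and 1133 CPM in AMO1, and 412, 742 and 1813 CPM and 317, 1269 and 1138 CPM in L363-CFZr.

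Libraries outside the comparison gave a last value. The 30 genes with the lowest AMO1 level relative to L363-CFZr stood, as a median, at 54.15% of their untreated L363-CFZr level in AMO1 libraries with CFZ at 24 h and at 41.18% with HFG at 24 h, above the 18.41% of untreated AMO1 at 24 h. With NCP26 at 24 h the value was 20.67%. The 30 genes were chosen by their ratio in the DMSO libraries, and what underlies the rise was not tested.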

How the results depend on the processing

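Counts of genes differing between lines stayed within 1.5 times under the scaling, filter, GC content and leave-one-out alternatives, with the exceptions given here. A test against a 2-fold difference called 1327 genes for both times together. Leaving out a library each in turn gave 6219 to 7771 genes for both times, 5863 to 6225 at 6 h and 2997 to 7338 at 24 h, the last without L363-CFZr replicate 2 at 24 h. The count of genes whose line difference changed with time was the least stable: 195 with DESeq2, 35 with the replicate block, 59 with the GC content offset and the block, and 13 to 751 without single libraries. Among genes detected in AMO1 only, 57 had at least 1 CPM and 0 counts in L363-CFZr, 34 had at least 20 CPM, and leaving out single libraries gave 88 to 108, while for L363-CFZr 1 gene met the rule of 1 CPM and 0 counts. The first component held 95.59%, 79.05% and 67.68% of the variance, and line 95.53%, 78.98% and 67.6%, for the 100 most variable, the 2000 most variable and all tested genes, with 87.57% to 89.68% and 87.45% to 89.58% without single libraries.

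Of 185 called named genes 159 kept call and direction under every alternative of the fit, and 26 did not. MYC turned, at 0.06978 on the log2 scale with the set of sample numbers as a term, a fit chosen after seeing the data, as was the fit with a length offset. Of 594 list medians under alternatives 37 moved by more than 1 SD, and of 96 chromosome medians 29. The median changed sign under at least 1 alternative for plasma cell markers, heat shock genes, the unfolded protein response, tRNA synthetases, NF-kB, cancer-testis antigens and sterol synthesis. Replicate numbers of the labels did not pair the libraries (r of deviations -0.0689 to 0.125 between libraries with the same number), and beside the 35 genes above the replicate block cost 2 named genes their call and left 6411 genes for both times, 6001 at 6 h and 3882 at 24 h. Depth limits the low genes: at these totals a gene under a few CPM rests on few counts in each library, and intervals from counts cover counting error only. Shared 31-mers are given above for some genes only. ASNS (48.6%), TYMS (44.2%), NFE2L2 (39.5%), HMGCS1 (38.9%) and others not so marked also share 31-mers with other transcripts.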
